A study of Mus musculus with 8 samples.

Results

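Genes for the uptake and intracellular binding of fatty acids were examined in mouse liver by RNA sequencing. The group was fixed by name and held 10 genes, *Fabp1*, *Fabp2*, *Fabp4*, *Fabp5*, *Fabp7*, *Cd36*, *Slc27a1*, *Slc27a2*, *Slc27a4* and *Dbi*, out of 16540 gene symbols in the count table. All 10 were listed, and all 10 passed the filter on low counts, as did 12307 genes in all. The livers came from male *Apoe*-/- mice on a Western diet, which received either ISOGK (isoginkgetin, a biflavonoid of *Ginkgo biloba*) at 20 mg/kg per day or vehicle (DMSO), over 8 weeks. Each group had 4 mice with 1 library each, and the labels give no age. The *Apoe* deletion, which raises plasma cholesterol, was carried by both groups and is not shown by the gene's counts (3252 to 6489 per library), so the genotype rests on the labels. The tissue was checked by 7 hepatocyte markers, which summed to 133600 to 170400 CPM (counts scaled to a common library size with TMM factors) in the 8 libraries. Most of this sum was *Alb* (105240 to 141270 CPM). Libraries held 19605286 to 24461854 counts with vehicle and 17457106 to 21626399 with ISOGK. Whether fewer cells of a type or less RNA per cell lies behind a lower value cannot be told apart in whole liver.

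Long-chain fatty acids enter hepatocytes with the help of CD36, a scavenger receptor and fatty acid translocase, and of the fatty acid transport proteins (FATPs) that the *Slc27a* genes encode. FATPs also act as acyl-CoA synthetases, so that a fatty acid is trapped in the cell as its CoA ester. Inside the cell, fatty acid-binding proteins (FABPs) carry free fatty acids through the cytosol, and the acyl-CoA-binding protein encoded by *Dbi* holds the CoA esters. Several of these genes are known targets of the PPAR family of nuclear receptors, which bind fatty acids and act on DNA as dimers with RXR.

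In the livers of ISOGK-treated mice, the mRNAs of the 3 FATPs in the group rose, while those of the 5 FABPs, *Cd36* and *Dbi* did not pass the test. *Slc27a1* was 2.18-fold, *Slc27a2* 1.36-fold and *Slc27a4* 1.38-fold as high as with vehicle (ratios of mean CPM, n = 4 per group). The count of 3 higher genes of 10, at an adjusted p under 0.05 in edgeR's quasi-likelihood test, stands beside 4.11% of all tested genes that were called higher and 7.55% called in either direction. In the other direction 3.44% of all tested genes and 0 of the 10 were called, and 0 of the 10 were lower at an unadjusted p under 0.05 in edgeR. In either direction 3 of the 10 genes and 24.2% of all tested genes passed that unadjusted p. The 10 genes were chosen with earlier results of these data known and leave out *Slc27a5* (log2 fold change 0.014). Their count beside these shares is thus a description and not a test. DESeq2 and limma-voom also called 3 higher and 0 lower genes, and 1 lower gene, *Cd36*, had an unadjusted p under 0.05 in limma-voom. The count of higher genes fell to 0 with library size alone and without vehicle-treated mouse 2 or 4. It was 1 without vehicle-treated mouse 1 or 3 or ISOGK-treated mouse 2, and 2 without ISOGK-treated mouse 1 or 4. Over all genes, library size alone called 262 higher and 804 lower in place of 506 and 423, and 219 and 160 were called without vehicle-treated mouse 2. The median log2 fold change of the 10 genes was 0.24, with 7 above and 3 below 0, against 0.0018 over all tested genes. Only *Slc27a1* also passed the study's second threshold, an absolute log2 fold change over 1, which 1.63% of tested genes passed in either direction and 0.999% in the higher direction. Without ISOGK-treated mouse 2, its log2 fold change was 0.83, below that threshold.

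The promoters of the 3 genes that rose, and of *Fabp1* for comparison, are shown as the 250 bases before the RefSeq start (GRCm38.p6), with capitals marking a TATA box (TATAAA), a GC box (GGGCGG) or the direct repeat AGGNCANAGGNCA on either strand.
Slc27a1 promoter, chr8:71568621-71568870, plus strand: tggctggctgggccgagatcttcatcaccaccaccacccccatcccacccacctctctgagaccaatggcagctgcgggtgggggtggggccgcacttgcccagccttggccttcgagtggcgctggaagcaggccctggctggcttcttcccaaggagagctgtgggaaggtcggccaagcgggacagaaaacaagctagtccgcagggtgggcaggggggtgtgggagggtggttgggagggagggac
Slc27a2 promoter, chr2:126552774-126553023, plus strand: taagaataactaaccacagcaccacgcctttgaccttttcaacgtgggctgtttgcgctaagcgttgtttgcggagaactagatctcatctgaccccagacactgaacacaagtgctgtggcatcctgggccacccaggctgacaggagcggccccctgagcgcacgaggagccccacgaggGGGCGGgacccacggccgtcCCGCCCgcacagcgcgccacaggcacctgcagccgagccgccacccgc
Slc27a4 promoter, chr2:29802384-29802633, plus strand: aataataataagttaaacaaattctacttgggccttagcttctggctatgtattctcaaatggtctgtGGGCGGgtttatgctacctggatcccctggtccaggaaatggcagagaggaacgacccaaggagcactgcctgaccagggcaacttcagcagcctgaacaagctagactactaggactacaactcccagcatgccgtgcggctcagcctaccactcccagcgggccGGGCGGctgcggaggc
Fabp1 promoter, chr6:71199629-71199878, plus strand: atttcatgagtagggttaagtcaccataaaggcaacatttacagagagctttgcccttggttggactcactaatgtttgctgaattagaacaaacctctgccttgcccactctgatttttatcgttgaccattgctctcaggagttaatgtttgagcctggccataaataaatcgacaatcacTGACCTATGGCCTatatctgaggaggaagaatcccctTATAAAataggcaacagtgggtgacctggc

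Such a direct repeat, called DR1, is the kind of element that PPAR and RXR bind together. In windows of 300 bases (250 before and 50 after the start), it was found in the promoter of *Fabp1* on the minus strand as AGGCCATAGGTCA, from position -67, and in 0.381% of 32851 promoter windows of all genes. The single 6-base unit AGGTCA, which overlaps that repeat, was in 16.3% of windows. On the minus strand it also lay at -9 in *Fabp1*, outside the repeat, at -220 in *Slc27a2*, at -228 in *Cd36* and at -171 in *Fabp7*. The *Fabp1* promoter also held a TATA box at position -30, which 13.6% of windows hold. The level of *Fabp1* itself did not pass the test between the groups. In the promoters of *Slc27a1* (3 starts are listed, and the first is shown), *Slc27a2* and *Slc27a4* the letters of the whole repeat and of the TATA box were not found. Those of *Slc27a2* and *Slc27a4* held 2 and 3 GC boxes, an element of 35.7% of windows, and one of the 3 in *Slc27a4* lies after the start. *Slc27a1* held 0, 1 and 3 GC boxes at its 3 starts, in order along the chromosome. *Slc27a1* held 10, 16 and 13 CpG dinucleotides per window at these starts, *Slc27a2* 25 and *Slc27a4* 14. *Fabp1*, *Fabp2* and *Cd36* held 3 each and *Fabp7* 6, and the median over all windows was 7. Neither trait was particular to the genes that rose. *Dbi*, which was not called, held 28 and 22 CpG dinucleotides at its listed starts, and *Cd36*, also not called, held GC boxes at -109 and -93. Promoter windows were found for 8 of the 10 genes. A match of letters is a description and not a binding site. Nor does a missing match show that a site is absent, since variant letters and sites outside the 300 bases were not searched.

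*Slc27a1* encodes FATP1, which is known best from muscle and fat (chromosome 8, 71568882 to 71587302 in GRCm38). Its level was 5.07, 5.70, 6.04 and 6.92 CPM in vehicle-treated mice 1 to 4 and 12.1, 20.2, 12.3 and 7.23 CPM in ISOGK-treated mice 1 to 4, from 101 to 382 counts per library. All ISOGK-treated mice lay above all vehicle-treated mice, but mouse 4 was close to the vehicle range and mouse 2 far above it. The means were 5.93 ± 0.774 and 12.9 ± 5.35 CPM (SD, n = 4 per group), which differ by 1.12 on the log2 scale (SE 0.26, 95% confidence interval 0.55 to 1.70, edgeR adjusted p = 0.0293). The call was lost in each of the 4 fits that left out a vehicle-treated mouse (log2 fold change 1.06, 1.104, 1.13 and 1.21 without mouse 1, 2, 3 and 4, edgeR adjusted p = 0.0841, 0.0922, 0.0746 and 0.0528). Vehicle-treated mouse 4 also carried skeletal muscle RNA, with a summed level of 78.2 CPM over 8 muscle markers against at most 0.576 CPM in any other library. The 5 markers of bile duct cells summed to 46.6, 69.1, 48.9 and 28.2 CPM in ISOGK-treated mice 1 to 4, which is the order of *Slc27a1* in these mice. In vehicle-treated mice 1 to 4 they summed to 31.5, 29.4, 27.5 and 34.8 CPM, which is not its order there. Most of each ISOGK sum was *Spp1* (35.7, 55.0, 35.3 and 20.5 CPM). All 5 markers had log2 fold changes above 0, and 1 of them (*Sox9*) was called higher in edgeR, beside 4.11% of all tested genes. None of the 5 markers was at 0 in all libraries, and their part in the value of *Slc27a1* was not tested.

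*Slc27a2* encodes FATP2, the FATP of liver and kidney that also activates very-long-chain fatty acids (chromosome 2, 126552407 to 126588243). It had 1552, 1185, 1330 and 1317 CPM in vehicle-treated mice 1 to 4 and 2018, 1994, 1687 and 1609.6 CPM in ISOGK-treated mice 1 to 4. The groups did not overlap, although vehicle-treated mouse 1 was near the lower 2 ISOGK-treated mice. The means were 1346 ± 152 and 1827 ± 209 CPM (SD, n = 4 per group), or 0.44 apart on the log2 scale (SE 0.12, interval 0.19 to 0.70, edgeR adjusted p = 0.0417). The call was lost without vehicle-treated mouse 2, 3 or 4 (log2 fold change 0.38, 0.44 and 0.43, edgeR adjusted p = 0.136, 0.103 and 0.0973) and without ISOGK-treated mouse 1 or 2 (0.39 and 0.40, edgeR adjusted p = 0.0848 and 0.112).

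*Slc27a4* encodes FATP4, a transport protein of the gut and of many other tissues (chromosome 2, 29802634 to 29817522). Vehicle-treated mice 1 to 4 had 23.6, 20.2, 25.2 and 23.0 CPM and ISOGK-treated mice 1 to 4 had 27.3, 33.7, 29.3 and 36.3 CPM. Again each ISOGK-treated mouse was above each vehicle-treated mouse, and mouse 4, the lowest of its group for both other FATPs, was the highest here. The fitted log2 difference was 0.46 (SE 0.11, interval 0.21 to 0.71, edgeR adjusted p = 0.0315), from 23.0 ± 2.10 to 31.6 ± 4.10 CPM (SD, n = 4 per group). The call was lost without vehicle-treated mouse 1, 2 or 4 (log2 fold change 0.47, 0.40 and 0.46, edgeR adjusted p = 0.0685, 0.109 and 0.0710) and without ISOGK-treated mouse 2 or 4 (0.43 and 0.39, edgeR adjusted p = 0.0832 and 0.0648). Groups that did not overlap in this direction were found for these 3 of the 10 genes and for 7.92% of all tested genes. The reverse was found for 0 of the 10 and 7.36% of all tested genes, so that 15.3% of tested genes had groups that did not overlap in either direction.

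**Figure D1:**
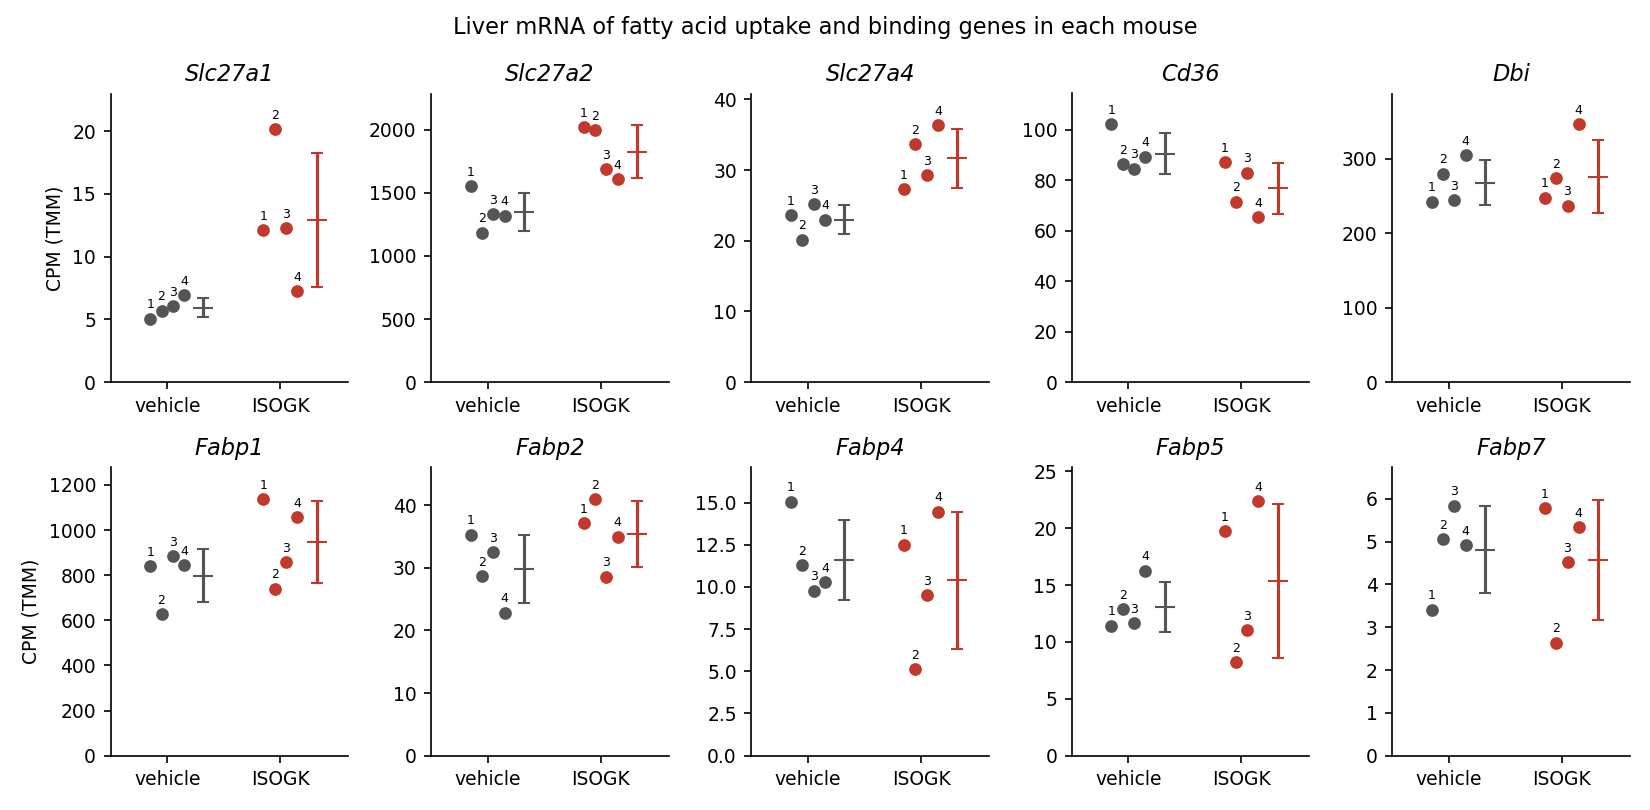
Normalized level in CPM (TMM) of the 10 genes, with 1 point per mouse (numbered 1 to 4) and the mean ± SD beside each group of 4. The *Slc27a* panels show ISOGK-treated mice above all vehicle-treated mice, while in the other 7 panels the groups overlap.

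How far these differences depend on the scaling of libraries was examined next. With library size alone in place of TMM factors, the median log2 fold change of all tested genes shifted by -0.13, and the 3 FATP genes had log2 fold changes of 1.00, 0.31 and 0.32 with edgeR adjusted p-values of 0.0516, 0.127 and 0.0898 (*Slc27a1*, *Slc27a2* and *Slc27a4*). Rescaling moves all genes by about the same amount, so the place of the 3 genes relative to the median cannot decide between the scalings. *Slc27a5*, which encodes FATP5, the liver's bile acid-CoA ligase and fatty acid transporter, served as a reference within each library, a choice made after its values had been seen. It had 845 ± 34.7 CPM with vehicle and 853 ± 49.0 CPM with ISOGK (SD, n = 4 per group), and the fitted log2 difference was 0.014 (interval -0.18 to 0.21, edgeR adjusted p = 0.943). For every 1000 counts of *Slc27a5* there were 1892, 1366, 1641 and 1496 counts of *Slc27a2* in vehicle-treated mice 1 to 4 and 2286, 2217, 2136 and 1915 in ISOGK-treated mice 1 to 4. No scaling factor enters this ratio, but *Slc27a5* was level under TMM factors (0.014) and lay at -0.12 with library size alone. Dividing by it therefore returns nearly the TMM differences and is not a separate check of the scaling. The groups did not overlap in this ratio (log2 difference 0.43, two-sided exact permutation test, p = 0.0286, below which 4 mice against 4 cannot go). The ratio of *Slc27a1* to *Slc27a5* did not overlap either (log2 difference 1.03, exact permutation test, p = 0.0286), while that of *Slc27a4* did (0.44, exact permutation test, p = 0.0571). Adjusted over the 4 ratios tested, these p-values were 0.0572, 0.0572 and 0.0761 in the exact permutation test.

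**Figure D2:**
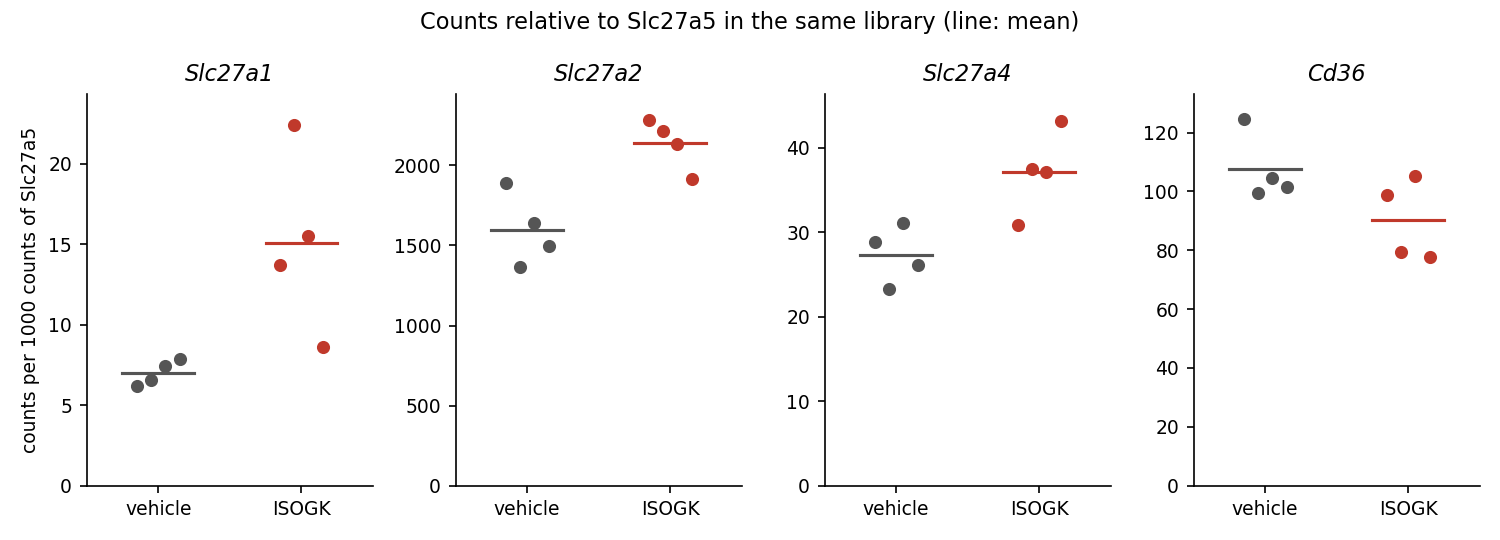
Counts of *Slc27a1*, *Slc27a2*, *Slc27a4* and *Cd36* per 1000 counts of *Slc27a5* in the same library, with 1 point per mouse and a line at the mean of each group of 4. The ISOGK-treated mice lie above all vehicle-treated mice for *Slc27a1* and *Slc27a2*, overlap for *Slc27a4*, and lie partly below for *Cd36*.

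*Cd36* (chromosome 5, 17781690 to 17888801) is expressed in hepatocytes as well as in macrophages and endothelium. Its level was 102, 86.3, 84.7 and 89.4 CPM in vehicle-treated mice 1 to 4 and 87.2, 71.5, 83.0 and 65.4 CPM in ISOGK-treated mice 1 to 4. One ISOGK-treated mouse lay within the vehicle range and the other 3 below it. The fitted log2 difference was -0.24 (SE 0.11, interval -0.48 to 5.7e-05), and its edgeR adjusted p was 0.207. Its adjusted p ranged from 0.0929 to 0.436 over the 16 alternative fits. Relative to *Slc27a5*, *Cd36* had a log2 difference of -0.26 (two-sided exact permutation test, p = 0.143). Of 11 macrophage markers, 10 had log2 fold changes below 0, and 2 were called lower in edgeR, beside 3.44% of all tested genes. The 2 were *Gpnmb* (-1.19, edgeR adjusted p = 6.48e-05) and *Cd68* (-0.57, edgeR adjusted p = 0.00900). The summed level of the macrophage markers was 1502 to 1859 CPM with vehicle and 1157 to 1451 CPM with ISOGK, without overlap. Among single genes, 7.36% of all tested were lower with ISOGK without overlap. The largest part of the macrophage sum was *Cd5l*, with 577 to 667 CPM with vehicle and 407 to 560 CPM with ISOGK. *Clec4f*, the marker above 0, had a log2 fold change of 0.060. It had 73.0 CPM in vehicle-treated mouse 1 and 193 to 231 CPM in the rest of that group. The same mouse was the highest for *Adgre1* (143 CPM, the rest of its group 45.0 to 73.2), *Marco* (170, 18.6 to 57.6) and *Timd4* (37.1, 9.87 to 17.4). ISOGK-treated mouse 4 had 5.34 CPM of *Vsig4*, the rest of its group 75 to 94.4. The signs of these markers thus lean on single mice. The part of macrophages in the values of *Cd36*, *Fabp4* and *Fabp5*, genes that macrophages also express, was not tested.

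*Fabp1*, which encodes the liver FABP (chromosome 6, 71199827 to 71205023), had 839, 627, 884 and 843 CPM in vehicle-treated mice 1 to 4 and 1138, 739.6, 857 and 1058 CPM in ISOGK-treated mice 1 to 4. ISOGK-treated mice 1 and 4 were above the vehicle range and mice 2 and 3 within it, and the fitted log2 difference was 0.25 (SE 0.15, interval -0.080 to 0.58, edgeR adjusted p = 0.344). *Fabp2*, which encodes the intestinal FABP (chromosome 3, 122895072 to 122899506), had 22.8 to 35.3 CPM with vehicle and 28.6 to 41.0 CPM with ISOGK. Its log2 fold change was also 0.25 (interval -0.064 to 0.56, edgeR adjusted p = 0.317). *Fabp2* is a gene of enterocytes as well, and *Vil1* and *Lct*, which mark those cells, had at most 8 and 1 counts per library. The enterocyte sum of 47.9 to 59.1 CPM with vehicle and 58.8 to 73.8 CPM with ISOGK came almost wholly from *Cdhr5*, and 3 of the 6 listed markers were in the table.

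*Fabp5* and *Fabp4*, which encode the epidermal and the adipocyte FABP, lie 187.5 kb apart on chromosome 3 (10012548 to 10016607 and 10204088 to 10208576). *Fabp4* had 15.1, 11.3, 9.77 and 10.3 CPM in vehicle-treated mice 1 to 4 and 12.5, 5.12, 9.50 and 14.5 CPM in ISOGK-treated mice 1 to 4. *Fabp5* had 11.4, 12.9, 11.6 and 16.3 CPM with vehicle and 19.7, 8.23, 11.03 and 22.4 CPM with ISOGK, in the same order. For both genes ISOGK-treated mouse 2 was the lowest of all 8 mice, and mice 1 and 4 were the highest of their group. *Fabp7*, which encodes the brain FABP (chromosome 10, 57784881 to 57788450), had 3.41 to 5.84 CPM with vehicle and 2.64 to 5.79 CPM with ISOGK, and its lowest value was again that of ISOGK-treated mouse 2. The log2 fold changes of *Fabp4*, *Fabp5* and *Fabp7* were -0.15 (interval -0.77 to 0.47), 0.23 (interval -0.43 to 0.90) and -0.075 (interval -0.59 to 0.44), with edgeR adjusted p-values of 0.788, 0.680 and 0.882. The intervals of *Fabp1*, *Fabp2*, *Fabp4* and *Fabp5* include the log2 fold change of *Slc27a2*, 0.441, and that of *Fabp7* just reaches it (upper limit 0.4417). Whether the FABPs differ from the FATPs in their response was not tested. Of 7 adipocyte markers, 3 were listed in the table, and *Cfd* and *Adig* among them had at most 13 and 1 counts per library. The other one, *Lipe*, had 242 to 413 counts per library, with 15.3 CPM on average in either group. The summed level of 9 endothelial markers was 369.9 to 397 CPM with vehicle and 342 to 393 CPM with ISOGK, which overlapped.

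*Dbi* (chromosome 1, 120113280 to 120121078) had 242 to 305 CPM with vehicle and 237 to 346 CPM with ISOGK. Its log2 fold change of 0.045 (SE 0.13, interval -0.24 to 0.33, edgeR adjusted p = 0.871) was the smallest in size among the 10 genes, and it was -0.095 with library size alone.

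Per kilobase of the longest coding transcript, the order of the genes in vehicle-treated mice began with *Fabp1* at 1444 ± 209 CPM per kb, *Dbi* at 545 ± 61.3 and *Slc27a2* at 461 ± 52.1 (SD, n = 4 each). *Dbi* and *Slc27a2* did not differ beyond their spread, and their order turned when all annotated exons were counted in the length (188 and 359 CPM per kb). *Fabp2* at 30.9 ± 5.61 and *Cd36* at 26.7 ± 2.34 CPM per kb overlapped, as did *Fabp5* at 13.2 ± 2.26 and *Fabp4* at 12.9 ± 2.67. *Slc27a4* at 5.67 ± 0.518 and *Fabp7* at 5.46 ± 1.15 CPM per kb also overlapped, and *Slc27a1* at 2.12 ± 0.277 was the lowest. Over all annotated exons, *Fabp5* (3.66) and *Fabp4* (2.58 CPM per kb) fell below *Slc27a4* (5.21) and *Fabp7* (3.85). With the length of the longest coding transcript, *Fabp1* made up 94.9% to 96.5% of the 5 *Fabp* genes in every library. Among *Slc27a1*, *Slc27a2*, *Slc27a4* and *Slc27a5*, the share of *Slc27a2* was 51.3% to 59.2% with vehicle and 59.3% to 63.5% with ISOGK. The share of *Slc27a1* was 0.202% to 0.293% with vehicle and 0.278% to 0.660% with ISOGK, and the groups overlapped. By the mean per kilobase in either group, the member with the largest fold change, *Slc27a1*, was the least abundant. In mean CPM, *Fabp7* was lower than *Slc27a1* (4.81 and 5.93 CPM with vehicle, 4.57 and 12.9 CPM with ISOGK).

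**Figure D3:**
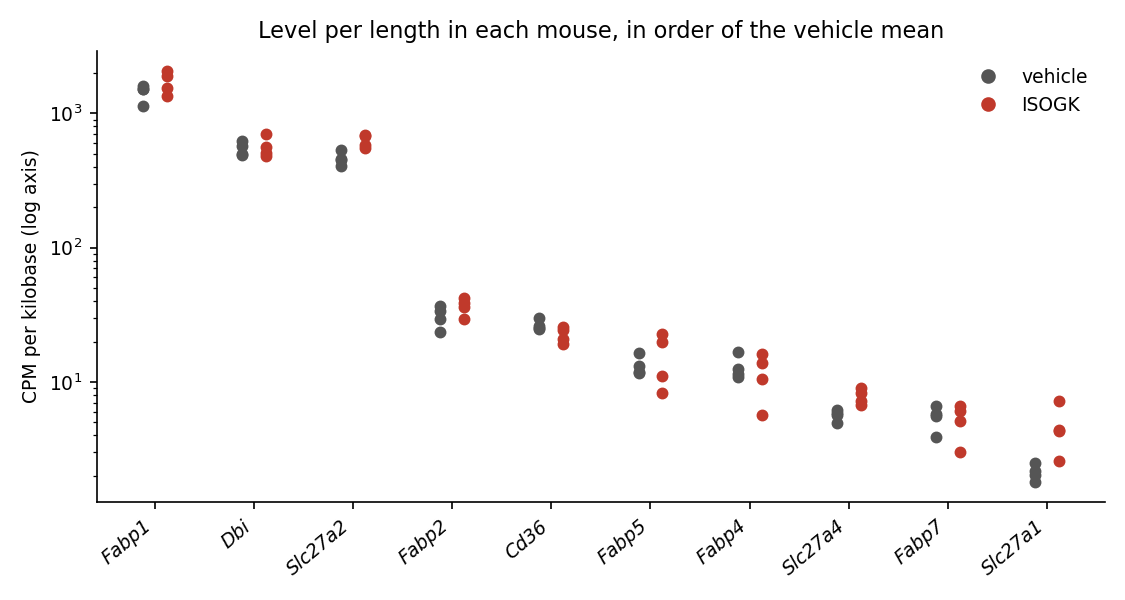
Level of each gene in CPM per kilobase of its longest coding transcript (log axis), with 1 point per mouse, ordered by the vehicle mean. *Fabp1*, *Dbi* and *Slc27a2* lie at 406 CPM per kb or above in all 8 mice, and the other 7 genes at 42.5 or below.

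The other genes of fatty acid transport, binding and activation were described from a list of 20, of which 18 were in the table and 12 passed the filter. Of these, 2 were called higher and 0 lower in edgeR, DESeq2 and limma-voom alike. At an unadjusted p under 0.05, 3 were higher and 0 lower with each tool. Over all tested genes edgeR called 4.11% higher and 3.44% lower, and 24.2% passed the unadjusted p, which is close to the share of 3 in 12. *Acsl1*, which encodes the main long-chain acyl-CoA synthetase of liver (chromosome 8, 46471037 to 46536051), had 849 ± 168 CPM with vehicle and 1623 ± 308 CPM with ISOGK (SD, n = 4 each) and rose by 0.94 on the log2 scale (SE 0.17, edgeR adjusted p = 0.00743). *Cav1*, which encodes the caveolar coat protein caveolin-1 (chromosome 6, 17306335 to 17341452), had 3.75 ± 0.251 and 8.62 ± 1.94 CPM and rose by 1.20 (SE 0.17, edgeR adjusted p = 0.00185). In both genes the groups did not overlap, and both kept an adjusted p under 0.05 in each of the 16 alternative fits. *Cav1* is abundant in endothelium, whose 9 markers had a median log2 fold change of -0.057 and 0 of 9 calls (1 lower at an unadjusted p under 0.05 in edgeR, DESeq2 and limma-voom each). *Scp2*, which encodes a sterol and acyl-CoA carrier, differed by 0.26 on the log2 scale (edgeR adjusted p = 0.153). The other synthetases *Acsl3*, *Acsl4* and *Acsl5* lay between -0.17 and 0.17 on the log2 scale, and *Acbd3* to *Acbd6*, further acyl-CoA-binding proteins, between -0.18 and 0.18. *Fabp3*, *Fabp9*, *Fabp12*, *Slc27a3*, *Slc27a6* and *Acsl6* had at most 13 counts in any library and were not tested. The median of the 12 tested genes was 0.080.

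**Figure D4:**
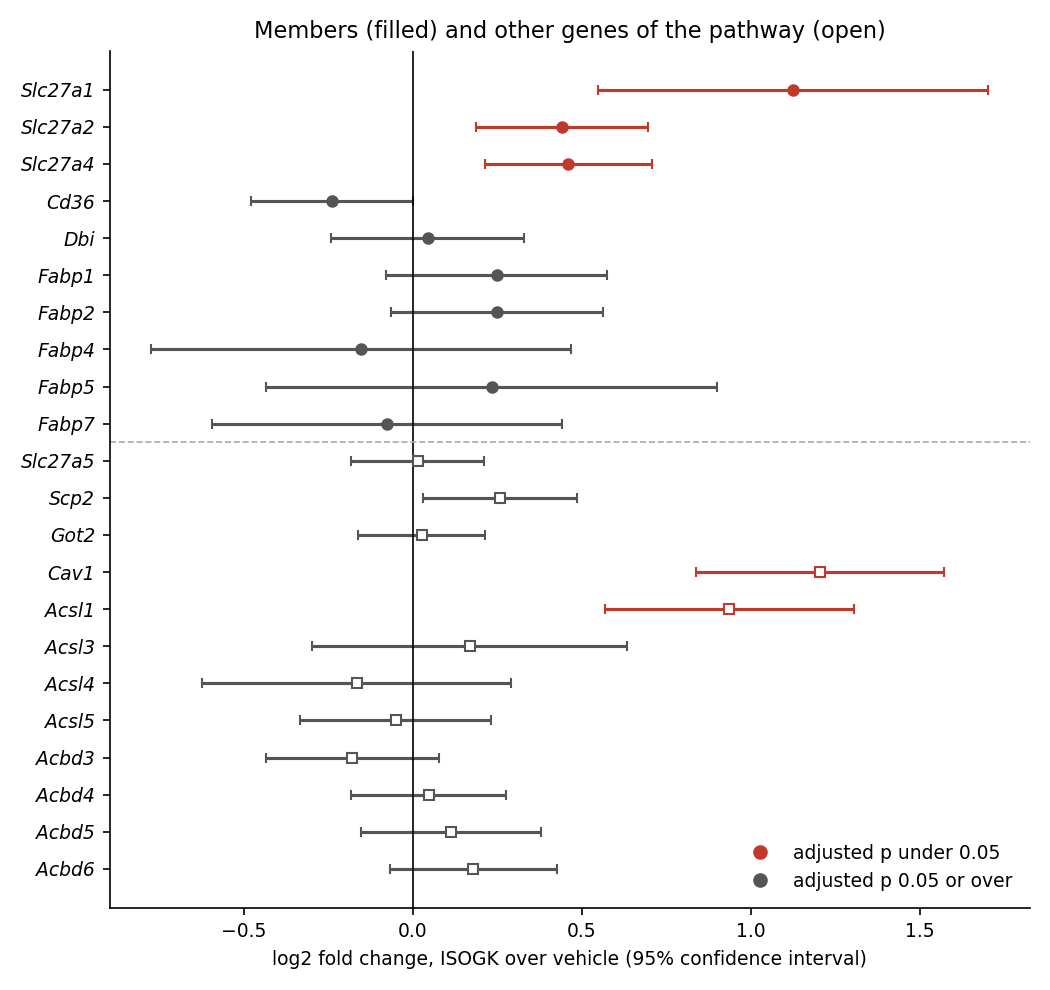
Log2 fold change of ISOGK over vehicle with its 95% confidence interval from edgeR, for the 10 genes (filled circles) and 12 other tested genes of the pathway (open squares). Genes with an adjusted p under 0.05 are red: *Slc27a1*, *Slc27a2*, *Slc27a4*, *Cav1* and *Acsl1*, all above 0.

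The mRNAs of receptors that regulate such genes were measured as well. These levels do not give the activity of a receptor, which was not tested. *Ppara* had 77.1 ± 6.33 and 80.5 ± 12.02 CPM, *Pparg* 4.96 ± 1.48 and 6.50 ± 0.904 CPM, and *Rxra* 431 ± 32.5 and 385 ± 29.7 CPM with vehicle and ISOGK (SD, n = 4 per group). Of *Ppara*, *Pparg*, *Rxra*, *Nr1h3* and *Nr1i2*, 0 passed an unadjusted p under 0.05 in edgeR, DESeq2 or limma-voom, with log2 fold changes from -0.17 to 0.39.

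The pattern of *Slc27a1* over the 8 mice was compared with that of every tested gene by Pearson's r on log2 CPM, as a description that includes the difference between the groups. The most similar genes were *Cpt1a* (r = 0.987), *Timm17a* (r = 0.972) and *Zc3h12d* (r = 0.966). *Cpt1a*, which encodes the enzyme that commits long-chain fatty acids to mitochondrial oxidation, had 475, 459, 485 and 571 CPM in vehicle-treated mice 1 to 4 and 719.9, 1003, 712 and 573 CPM in ISOGK-treated mice 1 to 4. As for *Slc27a1*, mouse 2 was the highest and mouse 4 the lowest of the ISOGK group. *Timm17a* encodes a subunit of the mitochondrial protein import machinery.

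**Figure D5:**
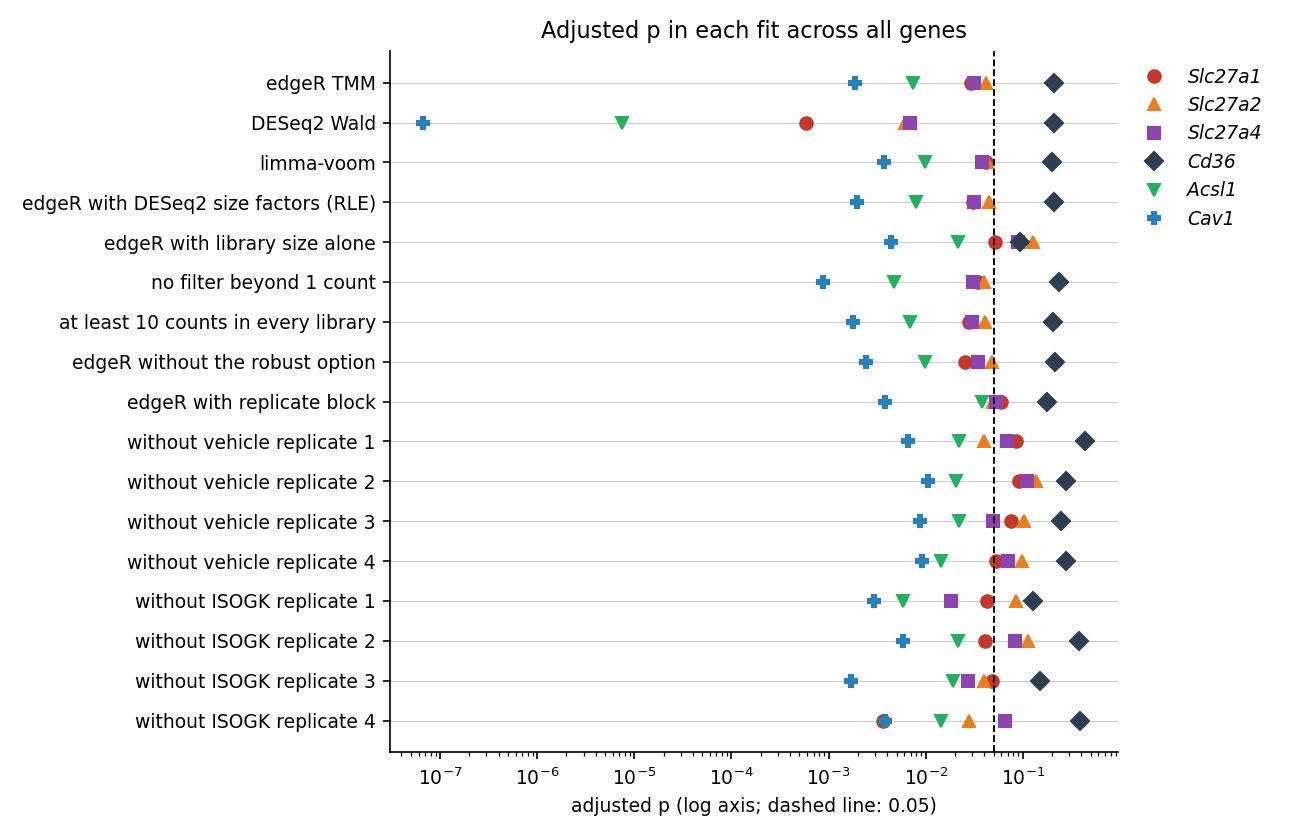
Adjusted p (log axis, dashed line at 0.05) of *Slc27a1*, *Slc27a2*, *Slc27a4*, *Cd36*, *Acsl1* and *Cav1* in the edgeR fit with TMM and 16 alternatives. *Acsl1* and *Cav1* stay left of the line in all, and *Cd36* right of it in all. The 3 *Slc27a* genes cross it when single mice are left out and with library size alone. *Slc27a1* and *Slc27a4* also cross it with the replicate block.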

How the data were processed

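Libraries from the livers of 8 mice were grouped by their titles, and DMSO columns were taken as vehicle after the scheme of the study. The deposited values are raw counts per gene symbol, which the authors computed with StringTie from single-end reads aligned with HISAT2 (build mm10 per the labels). The annotation release and the use of strand are not given in the sources used here, and reads of close copies could have been split.

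Counts were filtered with filterByExpr (minimum count 10, minimum total 15), scaled by TMM factors, and fitted in edgeR 4.0.16 under R 4.3.3 (quasi-likelihood F test, robust). Benjamini-Hochberg adjustment ran over all 12307 genes tested. CPM used TMM-scaled library sizes, and log2 CPM a prior count of 2. The standard error is the absolute log2 fold change divided by the square root of F. That libraries are separate mice rests on the labels. Libraries of a group differed by more than sampling noise (chi-square per gene 18.1 to 99.6, about 1 for noise alone), and counts give precision for counting error only.

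Alternatives were DESeq2 1.42.0, limma-voom (limma 3.58.1), other scalings and filters, a fit that was not robust, a block for replicate number, and each mouse left out in turn. Positions and lengths are those of GENCODE M21 (GRCm38) and promoters those of RefSeq. Of the windows of 50 bases in the transcript of *Fabp5*, 21.1% were shared with other genes, chiefly *Gm6166*, so its counts are uncertain. The share was 3.17% for *Dbi*, 1.75% for *Slc27a1* and 0 for the other 7 genes.

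The members and lists were chosen with earlier results of these data known. Named genes were the members, every called gene of the pathway list, 5 receptors, and the 3 genes most correlated with a called member whose absolute log2 fold change exceeded 1. Marker lists covered hepatocytes, adipocytes, endothelium, macrophages, enterocytes, bile duct cells, skeletal muscle and stellate cells (6 markers, summed level 256 to 349 CPM with vehicle and 200 to 385 CPM with ISOGK).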

Additional observations from a re-analysis of the deposited data

How the results depend on the processing

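Precision is limited by 4 mice per group and, for *Fabp7* and *Slc27a1*, by counts of 50 to 382 per library. DESeq2 called 765 genes higher and 670 lower, against 506 and 423. With library size alone, 262 genes were higher and 804 lower, 0 members were called, *Slc27a1*, *Slc27a2* and *Slc27a4* had log2 fold changes of 1.00, 0.31 and 0.32, and *Dbi* (-0.095), *Slc27a5* (-0.12), *Acbd4* (-0.088), *Acbd5* (-0.0061) and *Got2* (-0.10) turned below 0. The replicate numbers do not pair the mice (same-numbered mice correlated at -0.0144 to 0.0849, and 1 of 4 vehicle-treated mice correlated best with its own number). With the replicate number as a block, 1 member was called, and *Slc27a1* (1.06, edgeR adjusted p = 0.0595) and *Slc27a4* (0.46, edgeR adjusted p = 0.0527) lost their calls. Relative to *Slc27a5* in the same library, an alternative chosen after seeing the data, *Slc27a4* had a log2 difference of 0.44 (exact permutation test, p = 0.0571).

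With each mouse left out, 219 to 712 genes were higher, 160 to 523 lower and 0 to 3 members called higher. The log2 fold changes ranged from 0.83 to 1.32 for *Slc27a1*, 0.38 to 0.52 for *Slc27a2*, 0.39 to 0.52 for *Slc27a4*, -0.35 to 0.073 for *Fabp4*, -0.0036 to 0.44 for *Fabp5*, -0.21 to 0.11 for *Fabp7* and -0.083 to 0.11 for *Dbi*. Those of other pathway genes ranged from -0.012 to 0.044 for *Slc27a5*, -0.020 to 0.11 for *Acbd4*, -0.026 to 0.29 for *Acsl3*, -0.15 to 0.018 for *Acsl5* and -0.00070 to 0.052 for *Got2*. The calls of *Slc27a1*, *Slc27a2* and *Slc27a4* were lost in 4, 5 and 5 of the 8 fits, which have fewer mice, and their direction was kept in all 16 alternatives.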

Other observations

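*Fabp4*, *Fabp5* and *Fabp7* were compared with each other and with *Fabp1*, *Fabp2*, *Cd36* and *Dbi*, the genes whose groups overlapped, over the 8 mice (21 pairs, log2 CPM). By Pearson's r, the highest correlations were those of *Fabp5* and *Fabp7* (Pearson's r = 0.715, exact permutation p = 0.0452, Spearman's rho = 0.690, exact permutation p = 0.0694) and of *Fabp4* and *Fabp5* (r = 0.697, exact permutation p = 0.0467, rho = 0.619, exact permutation p = 0.115). By Spearman's rho, *Fabp1* and *Fabp7* (0.667) and *Fabp5* and *Dbi* (0.643) lay above *Fabp4* and *Fabp5*. Without the 2 mice farthest from the median of the first gene, r was 0.711 and 0.893. Adjusted over the 21 pairs, the exact permutation p-values were 0.405 for r and 0.604 for rho in both pairs, so neither passed the correction. With 4 mice in each group, no value within a group is given. These genes share the scaling of their library, and *Fabp5* shares sequence with other genes.

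In ISOGK-treated mouse 2, *Slc27a1* (20.2 CPM) and *Acsl1* (2009 CPM) were the highest of all 8 mice, while *Fabp4* (5.12 CPM), *Fabp5* (8.23 CPM) and *Fabp7* (2.64 CPM) were the lowest. These values were picked after they had been seen, and the contrast was not tested.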
